A study of Homo sapiens with 16 samples.

Results

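The loci of 8 genes of the NF-kB pathway were described in ATAC-seq peak lists of senescent fibroblasts: RELA, RELB, REL, NFKB1 and NFKB2, which encode the subunits of the transcription factor, and NFKBIA, NFKBIZ and TNFAIP3, which encode feedback regulators. A peak belonged to a locus when it lay within 50 kb of the gene's listed hg19 start position, and overlapping peaks of all libraries of a sequencing layout were merged into regions. This gave 88 of 153040 regions in the paired-end libraries and 62 of 103322 regions in the single-end libraries. ATAC-seq uses a transposase that inserts adapters into open DNA, so a peak marks accessible chromatin. The rule for the loci uses gene names and positions only, not measured values.

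The cells were IMR-90 ER:Ras fibroblasts, which come from human lung. Their ER:Ras construct is an oestrogen receptor fusion of oncogenic Ras that 4-hydroxytamoxifen (4-OHT) switches on, and 100 nM over 6 days brings about oncogene-induced senescence. The paired-end libraries were 2 with siRNA against FOXF1/2 (siFOXF1/2) and 2 with knockdown of JUN-family members, both in 4-OHT-treated cells, 4 of 4-OHT-treated cells with control siRNA (Sen), and 2 with control siRNA and no 4-OHT (Pro). The single-end libraries were 2 each of 4-OHT-treated cells with siRNA against p300/CBP (sip300/CBP), with siRNA against p65 (sip65), the protein that RELA encodes, and with control siRNA (Sen). The JUN libraries are titled for cJUN and JUND, and their treatment label also names JUNB. Pro libraries are proliferating by title and treatment, although their cell type label reads senescent. All groups carry the ER:Ras construct and received siRNA. Nothing in the labels says that replicates came from separate cultures, so the spread between them may be technical. Fibroblast marker genes could not be checked, because the lists name no genes and an hg19 annotation was not used here. A larger share of cells with an open site and a more open site in each cell cannot be told apart in these bulk libraries.

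NF-kB works as a dimer of Rel-family subunits that is held in the cytoplasm by inhibitor proteins until a kinase complex marks the inhibitor for destruction. RELA, RELB and REL carry activation domains, while NFKB1 and NFKB2 encode precursors that are processed into DNA-binding partners and whose uncut forms act as inhibitors. NFKBIA encodes the inhibitor IkB-alpha, NFKBIZ a nuclear IkB-like protein, and TNFAIP3 a ubiquitin-editing enzyme that dampens signalling upstream of the kinase complex. Several of these genes are textbook NF-kB targets, which closes feedback loops, and NF-kB drives much of the inflammatory secretion of senescent cells.

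The promoters are shown first, because the regions described next are those at the gene starts and because several promoters hold the letters that NF-kB binds. RefSeq promoter sequences (build GRCh38.p14, a different build from the hg19 peak lists) were at hand for 12 starts of 7 of the 8 genes. The 250 bases before each start were searched on both strands for the kappaB consensus. It matched in 8 of the 12 starts (66.7%), in 6 of the 7 genes, against 1828 of 35116 promoters in the whole table (5.21%). The RELA starts had no match. The genes were picked as members of this pathway, so this share is a description. The sequence is given for 1 matching start of each of the 6 genes, 5′ to 3′, with the kappaB matches in capitals. Overlapping matches, such as the same site read on both strands, form 1 run of capitals.
REL: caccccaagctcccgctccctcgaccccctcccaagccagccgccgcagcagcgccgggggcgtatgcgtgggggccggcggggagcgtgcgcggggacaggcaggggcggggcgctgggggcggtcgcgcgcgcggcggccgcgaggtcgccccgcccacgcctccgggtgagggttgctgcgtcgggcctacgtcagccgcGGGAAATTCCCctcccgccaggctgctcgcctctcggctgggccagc
NFKB1, first start: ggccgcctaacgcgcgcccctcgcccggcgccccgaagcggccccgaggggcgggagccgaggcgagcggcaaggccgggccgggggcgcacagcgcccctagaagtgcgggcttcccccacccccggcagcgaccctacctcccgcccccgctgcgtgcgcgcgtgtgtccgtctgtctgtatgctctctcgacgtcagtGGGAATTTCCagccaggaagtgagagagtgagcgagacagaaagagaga
NFKB2, second start: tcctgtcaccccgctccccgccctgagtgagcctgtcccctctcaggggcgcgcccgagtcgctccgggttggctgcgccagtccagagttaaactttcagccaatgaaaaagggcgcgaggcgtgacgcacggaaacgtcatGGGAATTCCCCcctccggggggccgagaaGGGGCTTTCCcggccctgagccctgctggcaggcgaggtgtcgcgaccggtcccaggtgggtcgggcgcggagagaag
NFKBIA: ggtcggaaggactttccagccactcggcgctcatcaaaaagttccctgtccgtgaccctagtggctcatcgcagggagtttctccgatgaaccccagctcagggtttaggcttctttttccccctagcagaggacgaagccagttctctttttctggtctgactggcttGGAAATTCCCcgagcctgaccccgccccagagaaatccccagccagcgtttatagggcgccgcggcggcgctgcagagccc
NFKBIZ, first start: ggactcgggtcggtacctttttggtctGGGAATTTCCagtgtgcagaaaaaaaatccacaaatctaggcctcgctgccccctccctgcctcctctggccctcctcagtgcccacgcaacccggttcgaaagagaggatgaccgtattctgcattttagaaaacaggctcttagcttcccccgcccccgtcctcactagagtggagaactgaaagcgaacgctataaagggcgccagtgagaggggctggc
TNFAIP3: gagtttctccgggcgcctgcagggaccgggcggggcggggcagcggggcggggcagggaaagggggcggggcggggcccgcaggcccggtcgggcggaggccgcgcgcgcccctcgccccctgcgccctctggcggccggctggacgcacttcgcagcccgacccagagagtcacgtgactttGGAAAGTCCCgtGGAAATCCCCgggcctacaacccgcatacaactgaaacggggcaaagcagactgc

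In GRCh38.p14 these windows are chr2:60881324-60881573, plus strand for REL, chr4:102501109-102501358, plus strand for NFKB1, chr10:102394328-102394577, plus strand for NFKB2, chr14:35404750-35404999, minus strand for NFKBIA, chr3:101827740-101827989, plus strand for NFKBIZ and chr6:137867009-137867258, plus strand for TNFAIP3. The REL run lies 47 to 37 bases before the start. NFKB1 has its match 49 to 40 bases before the start. In NFKBIA the match begins 81 bases before the start, and TNFAIP3 holds a pair of matches that begin 67 and 55 bases before it. Matches begin 107 and 78 bases before the second NFKB2 start and 223 bases before the first NFKBIZ start. Of the matching starts whose sequence is not printed, the third NFKB2 start has matches that begin 176 and 21 bases before it. The second NFKBIZ start has its matches from 239 bases before it. The AP-1 motif TGANTCA, bound by JUN-family dimers, matched in 0 of the 12 starts and in 6.57% of all promoters. The forkhead motif TGTTTAC matched in 0 of the 12 and in 2.98% of all promoters. A list of 28 other NF-kB pathway and target genes had promoters for 25, and the kappaB consensus matched in 8 of these, namely BIRC3, CYLD, IL6, NFKBIB, NFKBID, TNIP1, TNIP3 and TRAF3, against 6.28% of all 27305 genes. In the same list the AP-1 motif matched in 3 genes (CXCL8, IKBKG and NFKBIB) against 8.06% of all genes, and the forkhead motif in 2 (TNIP1 and TNIP3), against 3.66% of all genes. These are matches of letters and not measured binding.

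The number of peaks at the 8 loci followed the length of each list. The siFOXF1/2 libraries had 67 and 60 peaks at the loci, the JUN-family knockdown libraries 38 and 33, the Sen libraries 55, 67, 58 and 56, and the Pro libraries 39 and 40. These counts were 0.0541% to 0.0651% of each paired-end list. In the single-end lists, sip300/CBP had 43 and 32 peaks, sip65 had 29 and 11, and Sen had 41 and 44. The paired-end lists held 60199 to 108323 peaks and the single-end lists 17899 to 71181, with the lowest number in sip65 replicate 2. The lists give no read totals. Height is given throughout as the summit pileup, the number of fragments or reads stacked at the highest point, divided by the genome-wide background coverage of the library (1.74 to 3.08 for paired-end lists, 0.195 to 0.475 for single-end lists), and is called times background. The smallest listed height was near 4.58 to 6.31 times background for the paired-end lists. It was 14.7 to 25.7 times background for the single-end lists, which are far coarser. Of the 88 paired-end regions 26 (29.5%) had a peak in all 10 libraries, against 24.8% of all regions. Of the 62 single-end regions 6 (9.68%) had one in all 6 libraries, against 12.0%, and 58 of the 62 overlapped a paired-end region of the same loci.

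**Figure D1:**
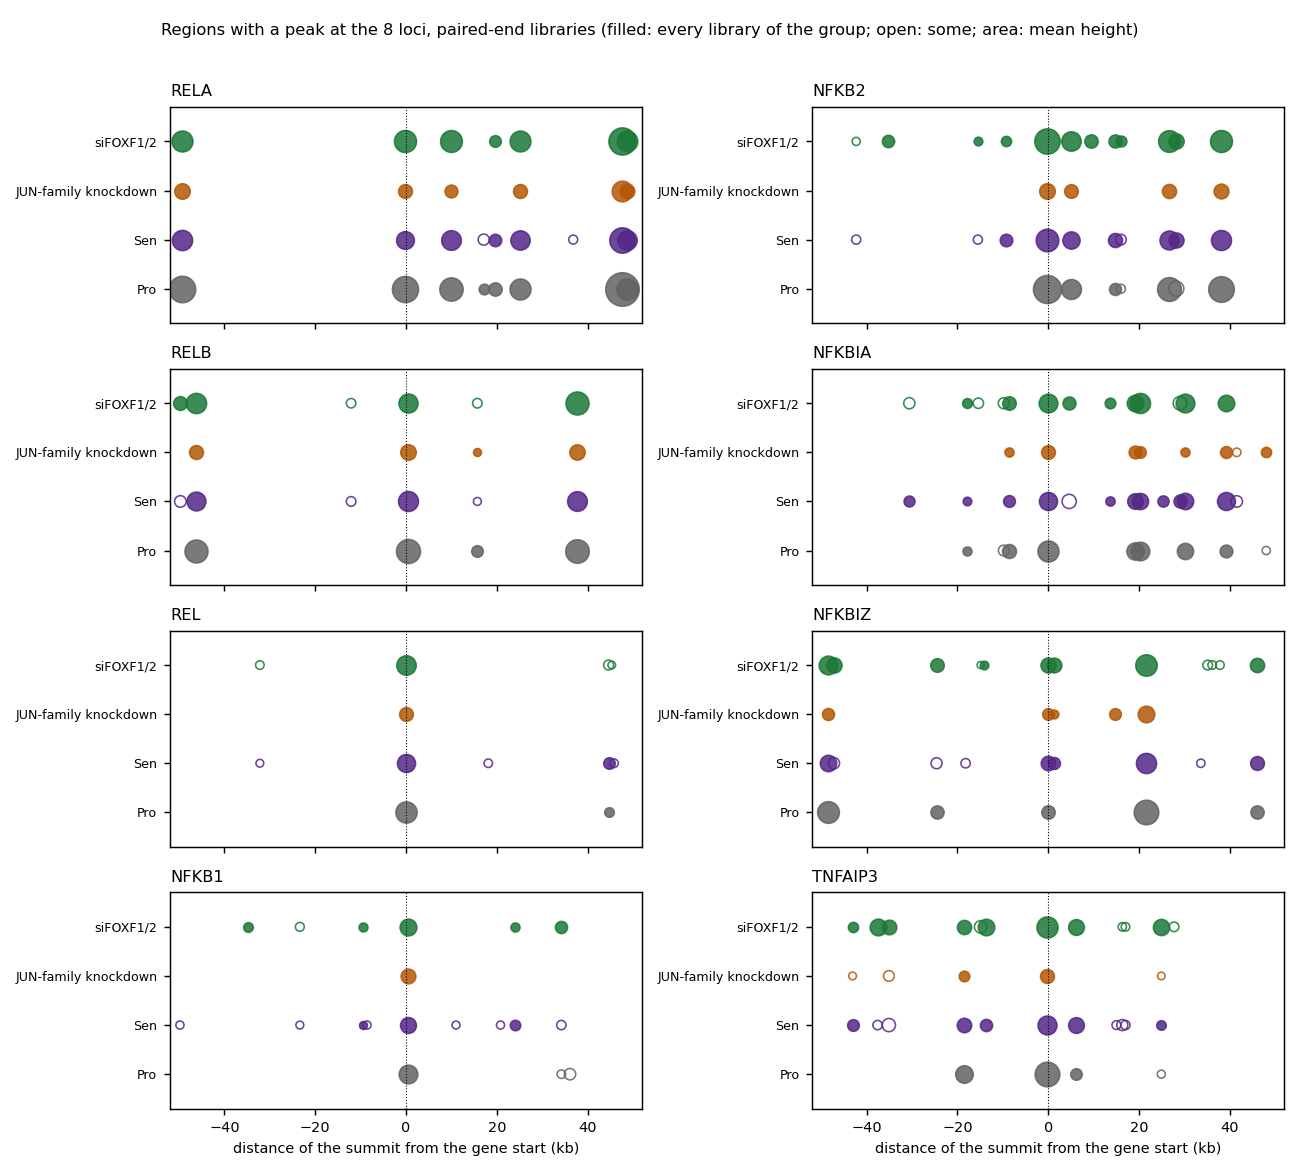
Regions with a peak at the 8 loci in paired-end libraries, by distance of the summit from the gene start (kb, positive downstream, except RELB, where positive means higher coordinate) for siFOXF1/2, JUN-family knockdown, Sen and Pro. Filled circles mark regions with a peak in every library of the group, open circles in some, and circle area follows the mean height. The start regions are filled in all groups, while most of the small circles of NFKB1, NFKBIZ and TNFAIP3 are missing from Pro and JUN-family knockdown.

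Each of the 5 contrasts was read by presence and by height, and none has a p-value, since 2 libraries against 4 cannot give a two-sided exact permutation p below 0.133, nor 2 against 2 below 0.333. A region was called opened when every library of the first group and no library of the other had a peak, and closed in the reverse case. Where all libraries had a peak, a region was called higher or lower when the heights of the groups did not overlap, after each library was divided by its median over the regions shared by all libraries of the contrast. The share of all regions of the genome called the same way stands beside each main count over the loci. No such share was computed for counts with a replicate left out, nor for every other alternative setting. Shifts in those counts cannot be told apart from shifts over the whole genome. Leaving out a library also makes the rules easier to meet, so opened and closed counts can then only stay or rise.

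In the paired-end libraries the gene starts were open in every group, and most start regions were lower in senescent than in proliferating cells. All 8 start regions had a peak in all 10 paired-end libraries, and 7 of 8 were lower in Sen than in Pro. Of all shared regions of the genome 42% were lower, and of the strongest 25% of them 76.9% were lower. The latter share is the closer comparison, because most start regions were strong peaks. Whether start regions differ from other strong regions was not tested. NFKBIZ was the exception among the start regions. RELA showed the widest gap, with heights of 67.8, 68.4, 52.3 and 38.6 times background in Sen, against 118 and 136 in Pro. The Sen heights of 52.3 and 38.6 were those of replicates 3 and 4. No Sen library reached the level of either Pro library, and the log2 difference was -1.20. The subunit genes went the same way: NFKB2, the highest start region, averaged 93.7 ± 11.6 times background in Sen (SD, n = 4) and 146 ± 0.178 in Pro (SD, n = 2), a log2 difference of -0.65. RELB averaged 72.2 ± 4.52 in Sen and 106 ± 6.05 in Pro, a log2 difference of -0.56. REL averaged 58.9 ± 4.14 in Sen and 82.1 ± 2.41 in Pro, and differed by -0.48 on the log2 scale. For NFKB1, heights were 40.3, 55.2, 39.6 and 43.3 in Sen against 52.8 and 73.8 in Pro. On the background scale these overlap, since Sen replicate 2 lay above Pro replicate 1, and NFKB1 was called lower only after the median scaling (-0.50).

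Among the feedback genes, TNFAIP3 had 68.2, 69.6, 65.7 and 56.5 times background at its start in Sen, against 115 and 109.7 in Pro, a log2 difference of -0.79. NFKBIA had 56.5, 50.0, 65.4 and 63.9 in Sen, against 74.6 and 87.5 in Pro, a log2 difference of -0.46. All Sen libraries lay below both Pro libraries at both genes. NFKBIZ had 30.6, 32.8, 45.5 and 37.0 in Sen, against 25.8 and 35.4 in Pro, and these overlap (log2 difference 0.25). Strong regions were more often lower across the genome in this contrast. The median log2 difference over all 49449 shared regions was -0.18, and among the strongest 25% of them 14 of 14 regions at the loci were lower in Sen, against 76.9% of all. None of the 14 was higher (0), against 4.61% of all.

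**Figure D2:**
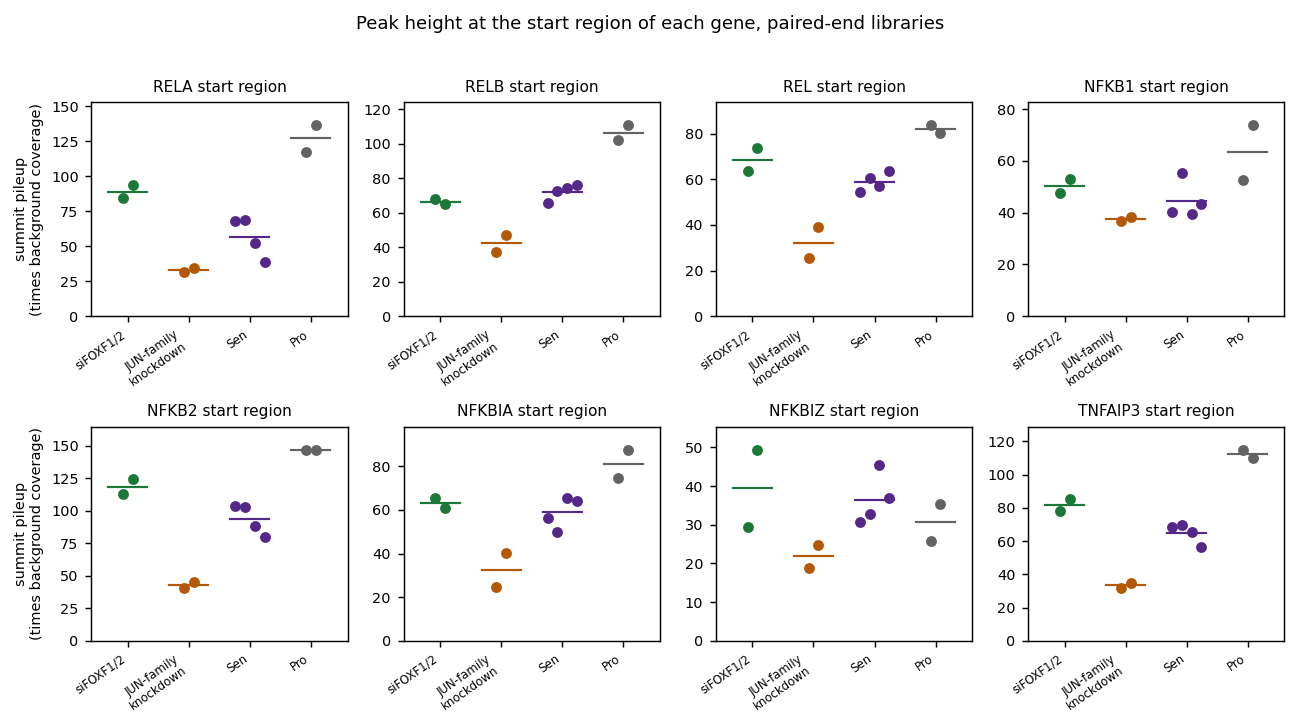
Height of the start region of each gene (summit pileup in times background coverage, y axis from 0) in each paired-end library of siFOXF1/2, JUN-family knockdown, Sen and Pro. Points are libraries and bars are group means. Sen lies below Pro at every gene except NFKBIZ, with overlap at NFKB1, and JUN-family knockdown lies below Sen at all 8, on a scale on which the median shared region of the genome was lower too (log2 difference -0.79).

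Senescence against proliferation, which asks what 4-OHT treatment changed, gave 10 opened regions of 46 without a Pro peak (21.7%), against 24.4% of all such regions. It gave 0 closed regions of 35 with a peak in both Pro libraries, against 3.96%. Of 32 shared regions 3 (9.38%) were higher, against 23.1% of all, and 23 (71.9%) were lower, against 42% of all. On the background scale 3 were higher (22.4% of all) and 21 lower (41% of all). Of the 10 opened regions, 4 lay at NFKBIA, among its 7 regions without a Pro peak. NFKB1 had 2 of 8, TNFAIP3 2 of 9, NFKB2 1 of 5 and NFKBIZ 1 of 10. None lay at RELA, RELB or REL, which had only 1, 2 and 4 regions without a Pro peak. With all lists taken to equal length, by −log10 q, the counts were 4 opened of 47 (9.25% of all) and 3 closed of 35 (13.8% of all). Leaving out Pro replicate 1 or 2 raised the closed count to 1 or 2, and leaving out Sen replicate 3 or 4 raised it to 1. Leaving out either Pro replicate raised the higher count to 5. Sen replicates 1 and 2 share a peak-name style inside the lists with Pro, and the labels give no preparation batch. With these alone the counts were 16 opened of 46 (36.3% of all), 2 closed of 35 (6.41% of all), 3 higher and 24 lower of 33 (27.4% and 50.4% of all).

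The 3 regions that were higher in Sen all lay away from the gene starts. The region 39.1 kb downstream of NFKBIA (hg19 chr14:35834267-35835782) had heights of 54.8, 67.6, 56.9 and 53.8 in Sen, against 30.4 and 24.3 in Pro. The lowest Sen library stood well above the higher Pro library, and the log2 difference was 1.09. The region 6.0 kb downstream of the TNFAIP3 start (chr6:138194389-138194852) had 44.1, 48.8, 44.2 and 37.0 in Sen, against 23 and 20.2 in Pro, a log2 difference of 1.01. Here too every Sen library exceeded both Pro libraries, while the TNFAIP3 start itself was lower. The third, 44.6 kb downstream of REL, had 27.6, 26.0, 15.1 and 17.5 in Sen, against 14.3 and 13.1 in Pro, a log2 difference of 0.60. The 2 Sen libraries with 27.6 and 26.0 were replicates 1 and 2, and the other 2 lay just above Pro.

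Opened regions had modest heights, and for each a detection bound was taken. It is the lowest height among the libraries with a peak over the smallest height that would have been listed in those without. This limit assumes the highest local background found around the region in the libraries with a peak, so it can exceed the smallest listed heights given above. The highest limit among the libraries without a peak was used. The bounds of the 10 opened regions ran from 0.91 to 2.18, and 5 reached 1.5. The region 30.6 kb upstream of NFKBIA (chr14:35904306-35904955) had 22, 20.8, 13.7 and 19.1 times background in Sen and no peak in Pro, with a bound of 2.18. At TNFAIP3 the region 43.1 kb upstream had 26.5, 29.6, 15.4 and 17.1 (bound 1.79). The region 13.7 kb upstream of TNFAIP3 had 23.1, 34.8, 21.3 and 19.5 (bound 1.62). Within NFKBIZ, whose start region did not differ, a region 1.3 kb downstream of the start (chr3:101547893-101548224) had 20.7, 21.6, 24.5 and 26.1 in Sen and no peak in Pro, with a bound of 1.71. NFKB2 had an opened region 9.3 kb upstream, with 31.3, 36.8, 19.9 and 17.5 (bound 1.70). The region 29.0 kb downstream of NFKBIA had 31.3, 45.2, 19.0 and 19.5, and its bound of 1.18 leaves little room above the detection limit. In these last regions Sen replicates 1 and 2 stood above replicates 3 and 4, whereas at NFKBIZ they lay slightly below.

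**Figure D3:**
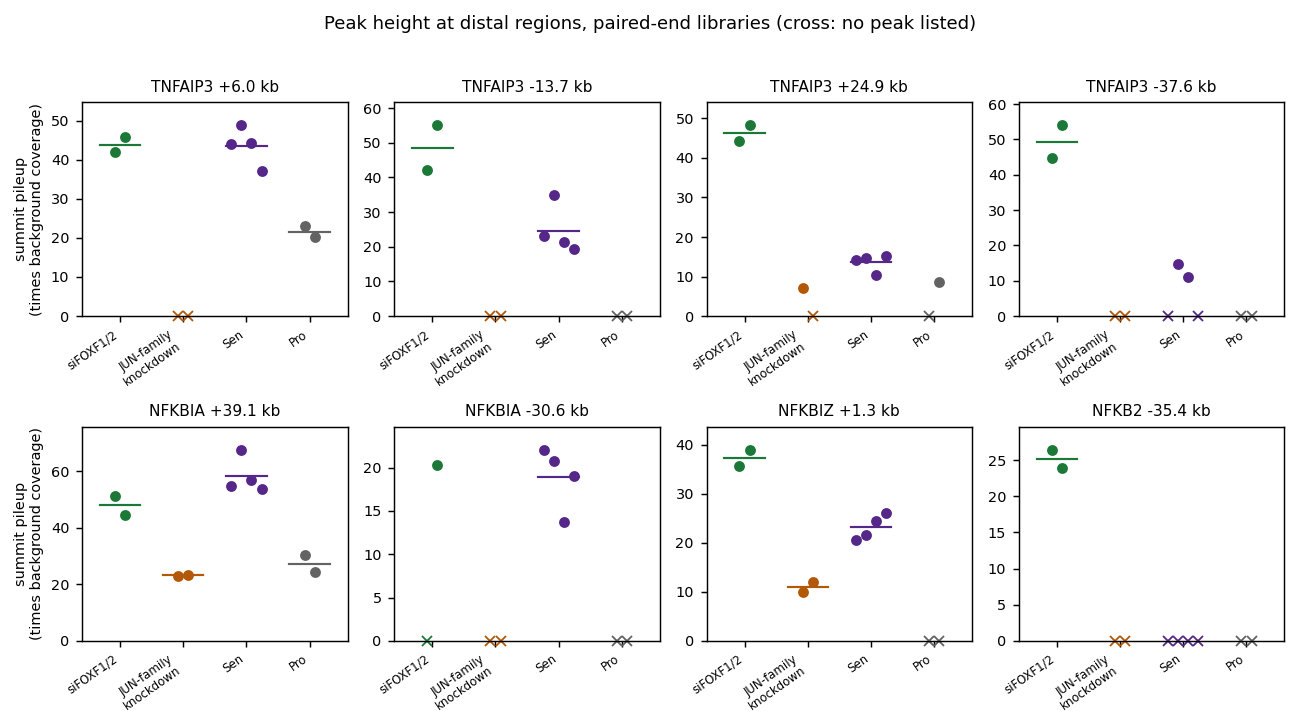
Height of 8 distal regions (summit pileup in times background coverage) in each paired-end library of siFOXF1/2, JUN-family knockdown, Sen and Pro. Points are libraries, bars are means where every library of a group has a peak, and a cross on the axis marks a library with no listed peak, which is not a height of 0. The crosses of JUN-family knockdown fill 6 of the 8 panels in at least 1 library, and siFOXF1/2 lies at 44.4 and 48.3 at the TNFAIP3 region 24.9 kb downstream.

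Knockdown of FOXF1/2, a pair of forkhead transcription factors, was compared with Sen. The 2 highest log2 differences among the 40 regions shared by these libraries both lay at TNFAIP3. The region 24.9 kb downstream of the TNFAIP3 start (chr6:138213192-138213834) had 44.4 and 48.3 times background in siFOXF1/2, against 14.1, 14.8, 10.5 and 15.2 in Sen. Both siFOXF1/2 libraries were far above all Sen libraries, with a log2 difference of 1.5, or 1.78 on the background scale. The region 13.7 kb upstream of TNFAIP3, which was opened in Sen, had 42.1 and 55.0 in siFOXF1/2, against 23.1, 34.8, 21.3 and 19.5 in Sen, a log2 difference of 0.72. The region 37.6 kb upstream (chr6:138150637-138151156) had 44.8 and 54.0 in siFOXF1/2, while only Sen replicates 2 and 3 had a peak, at 14.8 and 11.1, so it met none of the calls. The TNFAIP3 start region itself had 78.0 and 85.1 in siFOXF1/2 against 56.5 to 69.6 in Sen, and the median-scaled heights overlap (log2 difference 0.05). At TNFAIP3, 2 of the 6 shared regions were higher and 2 lower, against 21.2% and 21.6% of all. The lower ones lay 43.1 kb upstream (-0.69, and -0.41 on the background scale) and 6.0 kb downstream (-0.26, and 0.02). The region 43.1 kb upstream, also opened in Sen, had 14.2 and 18.2 in siFOXF1/2 against 26.5, 29.6, 15.4 and 17.1 in Sen. The unscaled heights overlap at both.

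Of 16 regions without a Sen peak 4 were opened in siFOXF1/2 (25%), against 30.8% of all such regions, and all 4 had bounds of 1.9 or more. NFKB2 had 2 of them. The region 35.4 kb upstream of NFKB2 (chr10:104118383-104119090) had 26.4 and 23.9 times background and a bound of 3.51, and the region 9.4 kb downstream of its start (chr10:104163548-104163792) had 27.6 and 32.7 and a bound of 2.02. No Sen, Pro or JUN-family knockdown library had a peak at either. The other 2 were 34.8 kb upstream of NFKB1, with 16.1 and 11.9 (bound 2.3), and 14.2 kb upstream of NFKBIZ, with 10.7 and 10.4 (bound 1.9). The NFKB1 region had a peak in both single-end Sen libraries, at 47.7 and 23.1 times background, so its absence from Sen was seen in the paired-end layout only. Without siFOXF1/2 replicate 2 the opened count was 11, and without replicate 1 it was 6.

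One of 44 regions with a peak in all Sen libraries was closed (2.27%), against 8.1% of all. It lay 25.3 kb downstream of NFKBIA, with 24.4, 26.4, 14.1 and 15.6 in Sen, and its bound of 0.93 lies under 1, so a difference was not detectable at this depth. The closed count was 4 without siFOXF1/2 replicate 2 and 3 without Sen replicate 4. With Sen replicates 1 and 2 alone, which share the peak-name style of siFOXF1/2, 4 of 20 regions were opened (27.8% of all) and 3 of 53 closed (11.1% of all).

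Of 40 shared regions 9 were higher in siFOXF1/2 (22.5%), against 21.2% of all, and 10 were lower (25%), against 21.6% of all. These counts depend on the scaling: the median shared region of the genome was 0.28 higher in siFOXF1/2 on the log2 background scale, where the loci gave 18 higher (46.1% of all) and 2 lower regions (8.77% of all). The higher count was 14 without siFOXF1/2 replicate 1. The RELA start was higher on both scales, with 84.2 and 94.0 in siFOXF1/2 against 67.8, 68.4, 52.3 and 38.6 in Sen and a median-scaled log2 difference of 0.40. Sen replicates 1 and 2, which share the peak-name style of siFOXF1/2, were the libraries with 67.8 and 68.4, nearer to siFOXF1/2. The RELB start was lower by the median scaling, with 67.7 and 64.9 in siFOXF1/2 against 65.8, 72.4, 74.6 and 76.0 in Sen and a log2 difference of -0.40. On the background scale the RELB heights overlap (-0.12). The NFKBIZ region 1.3 kb downstream of the start was higher in siFOXF1/2, with 35.6 and 38.9 against 20.7 to 26.1 in Sen and a log2 difference of 0.41. The region 9.3 kb upstream of NFKB2 was lower, with 12.6 and 19.7 in siFOXF1/2 against 31.3, 36.8, 19.9 and 17.5 in Sen by the median scaling (-0.96), though the unscaled heights of the groups overlap. The region 39.1 kb downstream of NFKBIA was also lower, with 51.3 and 44.6 in siFOXF1/2, against 53.8 to 67.6 in Sen (log2 difference -0.56, and -0.28 on the background scale). With Sen replicates 1 and 2 alone, 12 of 45 shared regions were higher (29.3% of all) and 14 lower (28.9% of all).

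Knockdown of JUN-family members, which are partners in the AP-1 transcription factor, left no peak at 15 of the 44 regions that had one in all Sen libraries (34.1%), against 31.6% of all regions. The share at the loci was close to that of the genome. The JUN-family knockdown lists are shorter than those of Sen, and with lists of equal length 6 of 32 regions were closed (15.3% of all). With Sen replicates 1 and 2 alone, where the rule is easier to meet, 24 of 53 were closed. No share over all regions was computed for that count. Of the 15 closed regions, 5 lay at NFKBIA, among its 11 regions with a peak in all Sen libraries. NFKB2 had 3 of 7, NFKB1 2 of 3, TNFAIP3 2 of 6, RELA 1 of 7, REL 1 of 2 and NFKBIZ 1 of 5. None lay at RELB, which had only 3 such regions, and none was a start region. Bounds ran from 0.94 to 3.1, and 9 of the 15 reached 1.5. The 2 regions with the highest log2 differences in Sen against Pro, 1.09 and 1.01, parted here. The TNFAIP3 region 6.0 kb downstream of the start, with 44.1, 48.8, 44.2 and 37.0 in Sen, had no peak in either JUN-family knockdown library, and its bound of 3.1 was the highest among the closed regions of the loci. The NFKBIA region 39.1 kb downstream still had a peak in both, at 23.1 and 23.4, against 53.8 to 67.6 in Sen, and was lower after median scaling (log2 difference -0.45, and -1.32 on the background scale).

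The next highest bound was that of the region 45.9 kb downstream of NFKBIZ, with 35.5, 41.2, 28.1 and 25.7 in Sen and no JUN-family knockdown peak (bound 3.04). Unlike the TNFAIP3 region, it had similar heights in Pro, at 34.4 and 25.3. The region 30.6 kb upstream of NFKBIA, opened in Sen, had no peak in JUN-family knockdown (bound 2.3). REL lost the region 44.6 kb downstream, with 27.6, 26.0, 15.1 and 17.5 in Sen (bound 2.16). At NFKB2 the regions 28.2 kb and 14.8 kb downstream had no JUN-family knockdown peak, against 37.9 to 42.5 and 28.2 to 40.4 times background in Sen, with bounds of 2.12 and 1.89. The region 13.7 kb upstream of TNFAIP3 was closed with a bound of 1.70.

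Opened regions were few: 2 of 16 without a Sen peak (12.5%), against 10.7% of all. The region 14.7 kb downstream of the NFKBIZ start (chr3:101561301-101561695) had 20.4 and 24.4 in JUN-family knockdown and no peak in any other paired-end library, with a bound of 3.50. The other lay 48.0 kb downstream of NFKBIA, with 16.6 and 16.4 in JUN-family knockdown (bound 2.48) and also a peak of 9.2 in Pro replicate 1. NFKBIZ thus had 1 closed and 1 opened distal region, while its region 1.3 kb downstream of the start stayed, at 10.1 and 11.9 in JUN-family knockdown against 20.7 to 26.1 in Sen.

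Heights of shared regions in this contrast turn on the scaling. The median shared region of the genome had a log2 difference of -0.79 on the background scale, and on that scale 27 of the 27 shared regions at the loci were lower (83.8% of all) and 0 higher (2.05% of all). After median scaling 3 of 27 were higher (11.1%), against 31.5% of all, and 4 were lower (14.8%), against 20.2% of all. The NFKB1 start had 36.7 and 38.3 in JUN-family knockdown against 40.3, 55.2, 39.6 and 43.3 in Sen, which is 0.64 higher by the median scaling and -0.24 on the background scale. The NFKB2 start was lower on both, with 40.6 and 45.2 in JUN-family knockdown against 104, 103, 88.3 and 79.9 in Sen (-0.25 by the median scaling, -1.12 on the background scale). The lowest of all was the region 30.2 kb downstream of NFKBIA, with 14.0 and 9.9 in JUN-family knockdown against 47.5, 58.0, 43.5 and 40.9 in Sen (-1.12 and -2.0). The higher count was 7 without JUN-family knockdown replicate 1 and 6 without replicate 2, which also gave 7 lower regions. Sen replicates 3 and 4 share a peak-name style with JUN-family knockdown. With these alone, 2 of 25 regions were opened (7.08% of all), 16 of 46 closed (34.8% of all), 5 of 27 higher (40.2% of all) and 10 of 27 lower (26.3% of all).

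**Figure D4:**
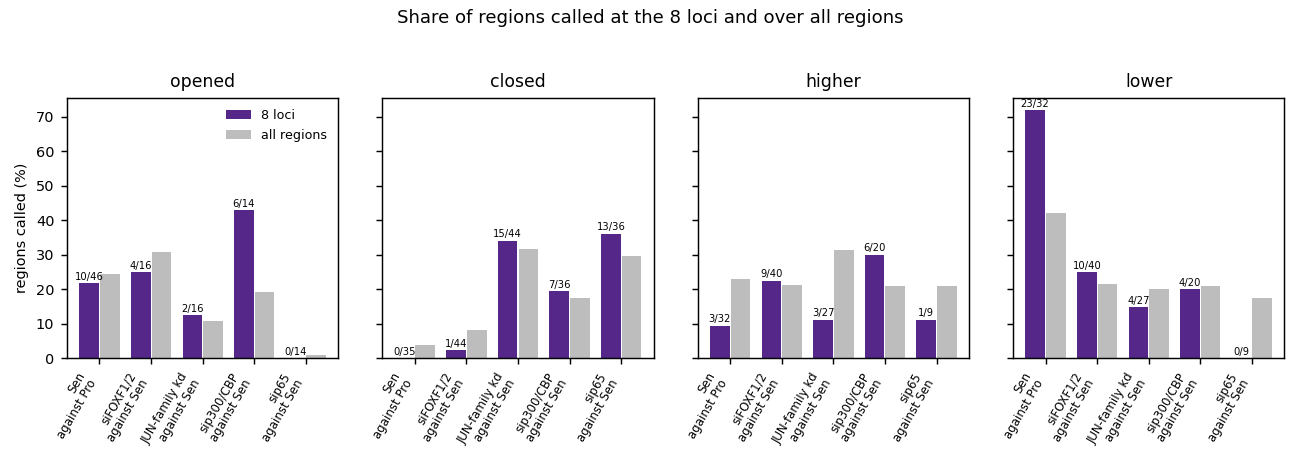
Percent of regions called opened, closed, higher and lower (y axis, from 0) at the 8 loci and over all regions, for each of the 5 contrasts. Numbers over the bars give called and eligible regions at the loci. The bars of the loci stand farthest above those of all regions for lower heights in Sen against Pro, at 71.9% against 42%, and for opened regions in sip300/CBP against Sen, at 42.9% against 19.2%.

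The single-end libraries test the acetyltransferases p300 and CBP, co-activators that NF-kB recruits, and p65 itself. An siRNA acts on the messenger RNA, so the peaks at RELA do not check the knockdown. The RELA start region had 47.8 times background in sip65 replicate 1 and no peak in replicate 2, against 56.4 and 33.7 in Sen, which were pileups of 15 in sip65 replicate 1 against 13 and 16 in Sen. These small pileups set the precision of all that follows. Single-end regions are also narrower and are often a piece of a paired-end region, so a call may concern 1 edge of a wider site. No detection bound in this layout reached 1.5, so each opened or closed call below lies near the detection limit.

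In sip65, 13 of 36 regions with a peak in both Sen libraries were closed (36.1%), against 29.6% of all, and 0 of 14 were opened, against 0.899% of all. With lists of equal length, where each holds 17880 peaks, 2 of 6 regions were closed (16.5% of all). The bounds of the 13 were under 1 in 11 cases. Highest was the TNFAIP3 region 6.0 kb downstream of the start, at 1.28: it had no peak in sip65, against 78.1 and 52.6 times background in Sen (pileups of 18 and 25). It lies inside the paired-end region that was higher in Sen than in Pro and had no peak in JUN-family knockdown. The REL start region came next, with no peak in sip65 against 65.1 and 46.3 in Sen and a bound of 1.13. The other 4 named closed regions were 26.5 kb downstream of NFKB2, 34.8 kb upstream of NFKB1, 13.6 kb upstream of TNFAIP3 and 45.9 kb downstream of NFKBIZ, with bounds of 0.78, 0.75, 0.82 and 0.75. The number closed was 26 without sip65 replicate 1 and 14 without replicate 2, the shortest list.

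The RELB start had a peak in every single-end library, with 73.3 and 71.8 in sip65 against 69.4 and 58.9 in Sen, and its median-scaled heights overlap (log2 difference 0.22). Of 9 shared regions 1 was higher in sip65 (11.1%), against 20.8% of all, and 0 were lower, against 17.6% of all. The 1 higher region lay 49.7 kb upstream of RELA, with 86.1 and 77.0 in sip65 against 91.1 and 58.9 in Sen, which do not overlap only after the median scaling (0.19). On the background scale 1 region was higher (10.6% of all) and 1 lower (8.84% of all). The higher count was 6 without either sip65 replicate and 3 without either Sen replicate, and the lower count was 1 without sip65 replicate 1, 7 without replicate 2 and 2 without Sen replicate 1. Opened regions numbered 2 without sip65 replicate 2 and 1 without Sen replicate 2.

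With sip300/CBP, 6 of 14 regions without a Sen peak were opened (42.9%), against 19.2% of all. NFKB2 and NFKBIZ had 2 each, and RELA and NFKBIA 1 each. The region 15.0 kb upstream of NFKBIA had 60.6 and 44.3 times background and the highest bound, 1.46. The NFKBIZ start had 41.6 and 34.1 in sip300/CBP and no peak in Sen (bound 0.98), although it had a peak in all 10 paired-end libraries. At NFKB2 the region 28.2 kb downstream had 75.7 and 54.5 (bound 1.14) and the region 7.4 kb downstream had 87.1 and 44.3 (bound 1.02). The remaining 2 lay 48.6 kb upstream of NFKBIZ, with 60.6 and 54.5 (bound 1.26), and 0.5 kb upstream of RELA, with 49.2 and 51.1 (bound 1.13). Each of these 2 is a piece of a paired-end region of which another single-end piece had a peak in both Sen libraries. Those pieces were the region 48.8 kb upstream of NFKBIZ, at 47.7 and 37.9 in Sen, and the RELA start, at 56.4 and 33.7. Apart from the region 7.4 kb downstream of NFKB2, each of these overlaps a paired-end region. Those at RELA and NFKBIZ had a peak in all 10 paired-end libraries, and that 28.2 kb downstream of NFKB2 had one in all 4 paired-end Sen libraries. In contrast, the paired-end region at NFKBIA had a peak in siFOXF1/2 replicate 1 alone, at 16.8. The opened count was 11 without sip300/CBP replicate 2.

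Closed regions in sip300/CBP were 7 of 36 (19.4%), against 17.4% of all, with bounds of 1.02 to 1.11. NFKB2 had 3 of them, NFKBIA 2, and NFKB1 and TNFAIP3 1 each. At NFKB2 the regions 26.5 kb and 5.1 kb downstream had 69.4 and 40.0, and 60.7 and 44.2, in Sen and no sip300/CBP peak, and the region 9.3 kb upstream had 43.4 and 29.5 in Sen. The TNFAIP3 region 24.9 kb downstream had 47.7 and 27.4 in Sen and no sip300/CBP peak, as did the region 34.8 kb upstream of NFKB1 with 47.7 and 23.1, and that 19.0 kb downstream of NFKBIA with 69.4 and 35.8. The closed count was 16 without sip300/CBP replicate 1 and 11 without Sen replicate 1.

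Among 20 shared regions 6 were higher in sip300/CBP (30%), against 21% of all, and 4 were lower (20%), against 20.8% of all. On the background scale, where the median region of the genome was 0.14 higher, these counts were 2 (16.1% of all) and 0 (5.52% of all). TNFAIP3 had 3 of the 4 lower regions. The region 6.0 kb downstream of its start had 56.8 and 34.1 in sip300/CBP against 78.1 and 52.6 in Sen, a median-scaled log2 difference of -0.68, with overlap before that scaling (-0.54). The region 38.1 kb downstream of NFKB2 was higher on both scales, with 98.4 and 81.7 in sip300/CBP against 69.4 and 44.2 in Sen (0.56), as was the region 48.8 kb upstream of NFKBIZ, with 71.9 and 61.3 against 47.7 and 37.9 (0.51). The starts of RELA (0.30), REL (0.17) and NFKB2 (0.38) and the region 49.7 kb upstream of RELA (0.32) were called higher only by the median scaling, and their unscaled heights overlap. Without sip300/CBP replicate 2 the counts were 14 higher and 8 lower, and the lower count was 8 without Sen replicate 1 and 7 without Sen replicate 2.

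**Figure D5:**
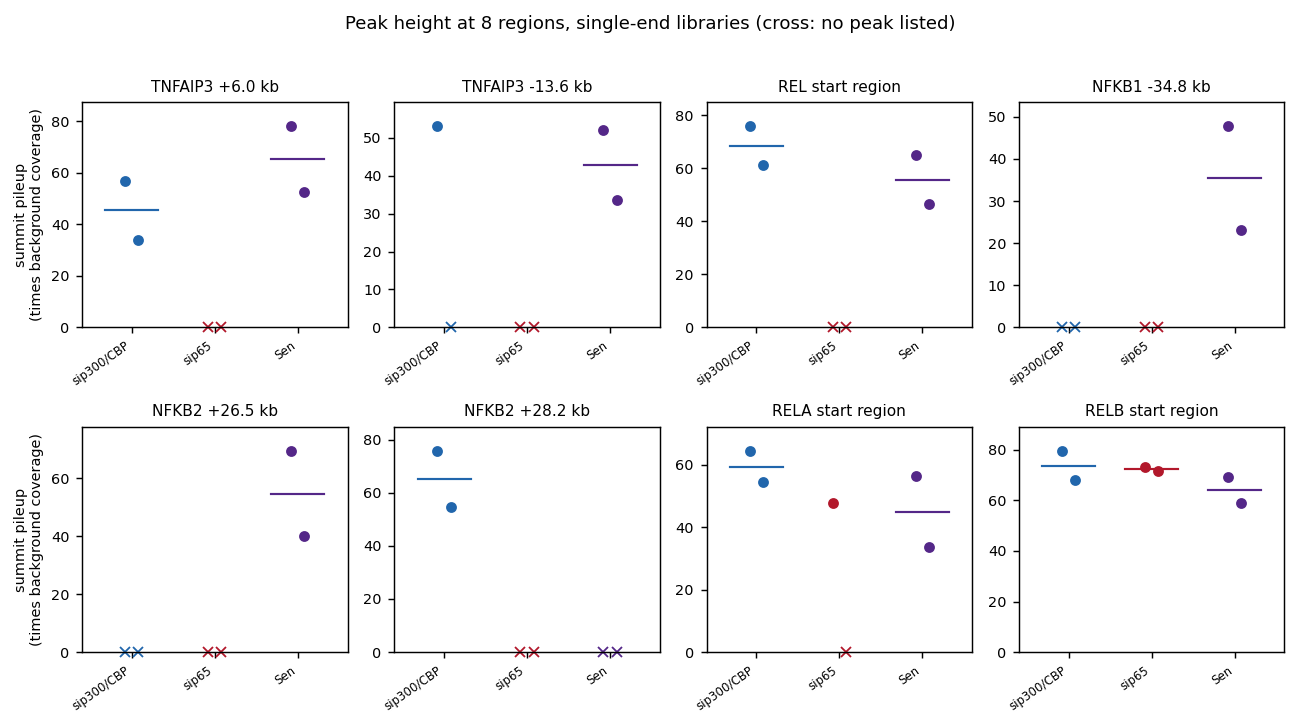
Height of 8 regions (summit pileup in times background coverage) in each single-end library of sip300/CBP, sip65 and Sen. Points are libraries, bars are means where both libraries have a peak, and a cross marks a library with no listed peak, which is not a height of 0. At the TNFAIP3 region 6.0 kb downstream both sip65 libraries lack a peak and sip300/CBP has 56.8 and 34.1, against 78.1 and 52.6 in Sen.

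Some strong regions of the windows are not near the start of the named gene. Strength here is the lowest −log10 q over the libraries with a peak, so a region seen in 1 library can rank first, and the order by height differs at some genes. By this measure the strongest region at RELA other than its start lay 47.5 kb downstream, with 73.0 to 218 times background over the paired-end libraries, and was lower in Sen than in Pro by a log2 difference of -0.83. It was 0.25 higher in JUN-family knockdown by the median scaling and -0.62 on the background scale. At RELB, NFKB2 and NFKBIZ the strongest such regions were 37.7, 38.1 and 21.5 kb from the start, and each had a peak in all 10 libraries. RefSeq lists a second NFKBIZ start 21.5 kb downstream of the first, the same distance at which that NFKBIZ region lies, with 72.3, 64.4, 83.4 and 75.2 in Sen against 117 and 106 in Pro. This second-start region was lower in Sen (-0.60), unlike the region at the first start (0.25). At NFKBIA the region other than the start ranked first by −log10 q was 19.1 kb downstream, with 25.3 to 53.4 times background over the libraries. At NFKB1 it was a region 36.1 kb downstream with a peak in Pro replicate 2 alone, at 21.2. In the single-end libraries the region ranked first by −log10 q at NFKBIZ had a peak in sip300/CBP replicate 1 alone, at 68.1. It lay 14.7 kb downstream, where the paired-end lists had a peak in JUN-family knockdown only. At TNFAIP3 the region ranked first by −log10 q was 35.1 kb upstream, with 56.8 and 44.3 in sip300/CBP and 54.2 in sip65 replicate 1, against 78.1 and 44.2 in Sen. In the gene order of RefSeq the nearest protein-coding genes on either side that do not overlap are SIPA1 and KAT5 for RELA, CLPTM1 and CLASRP for RELB, PAPOLG and PUS10 for REL, SLC39A8 and MANBA for NFKB1, GBF1 and PSD for NFKB2, PSMA6 and INSM2 for NFKBIA, CEP97 and ZPLD1 for NFKBIZ, which NXPE3 overlaps in that table, and OLIG3 and PERP for TNFAIP3. Which gene a distal region acts on was not measured.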

How the data were processed

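ATAC-seq peak lists of 16 libraries were used, made with a transposase kit and read as 75 bp single or 35 bp paired ends, per the labels' protocols. The submitters' processing notes name hg19, MACS2 2.1.1, deepTools 3.1.1, SAMtools 1.9 and Bowtie2 2.3.4.1, without roles. How reads were shifted and duplicates treated is not given in the sources used here. Each deposited list, called per library by the authors, gives per peak a fold ratio over local background, a −log10 p-value and q-value, and a score (not used). Every listed −log10 q was at least 4.

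Whole summit pileups and local backgrounds were solved from the authors' fold and p-value, to within 0.002 in −log10 p (widened above 10), for 100% of peaks, and the step was tested on simulated data. Background coverage is the lowest percentile (1) of these local backgrounds. Depth is otherwise unknown, and precision covers the spread between libraries only. Peaks on chromosomes 1 to 22 and X overlapping by at least 1 bp were merged per layout. Start regions lay within 2 kb of the listed position. No test was run. Alternatives were a −log10 q of at least 5, peaks over 50% of a region, lists of equal length, background scaling, subsets of Sen and leaving out each replicate. The detection bound, the strongest 25%, shares over all regions at equal list length and height calls within subsets of Sen were added after seeing the data. Members and lists were chosen with earlier results of these data known. The text names each start region, the strongest other region and, per contrast, up to 6 opened and closed regions by lowest −log10 q. Other regions were named after their values were seen. The pathway list was searched only in promoters, because the gene table is of GRCh38.p14. Computations used Python 3.11.15, numpy 2.4.6, pandas 2.3.3 and scipy 1.17.1.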

Additional observations from a re-analysis of the deposited data

Results flagged for a closer look

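Of 33 values at the loci over the 4 paired-end Sen libraries, 3 had a library standing apart, with a gap to the nearest library past Dixon's critical share of the group's range. Chance flags about 1 in 20 groups. Sen replicate 2 had a height of 48.81 times background at the region 19.1 kb downstream of NFKBIA, against 40.3 to 40.6 in the other Sen libraries. Sen replicate 2 also had 7 peaks at NFKB1, against 5 in each of the others. Sen replicate 3 had 9 peaks at NFKB2, against 10 in each of the others. With 3 equal counts any difference, even of 1 peak, meets this rule, so the chance of 1 in 20 does not hold for these counts. The call of the NFKBIA region as lower in Sen than in Pro holds at that highest Sen height, since Pro had 53.4 and 52.6.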

How the results depend on the processing

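A −log10 q of at least 5 left all 10 counts of opened and closed regions within 1.5 times of those reported. Peaks over 50% of a region moved 1 count, opened regions in JUN-family knockdown against Sen, to 1. With lists of equal length the counts were 4 opened and 3 closed in Sen against Pro, 6 closed in JUN-family knockdown, and 1 opened and 2 closed in sip65, where each list holds 17880 peaks. With Sen replicates 1 and 2 only there were 16 opened and 2 closed regions in Sen against Pro, 3 closed in siFOXF1/2, and 24 closed, 7 higher and 9 lower in JUN-family knockdown. With Sen replicates 3 and 4 only there were 5 higher in Sen against Pro, 2 closed and 19 lower in siFOXF1/2, and 5 higher and 10 lower in JUN-family knockdown. Heights over background coverage gave 18 higher and 2 lower regions in siFOXF1/2, 0 and 27 in JUN-family knockdown, 2 and 0 in sip300/CBP, and 1 lower in sip65. On that scale 20 of the single-region differences changed sign, 15 of them at regions whose groups overlap by the reported scaling. The 5 whose groups did not overlap were, in JUN-family knockdown the NFKB1 start (-0.24), RELA 47.5 kb downstream (-0.62) and NFKBIA 19.1 kb downstream (-0.64), and in siFOXF1/2 TNFAIP3 6.0 kb downstream (0.02) and NFKB2 28.2 kb downstream (0.05). Beside these 5 differences, 29 moved by less than the spread between libraries and 31 by more. A detection bound of at least 1.5, chosen after seeing the data, left 5 opened regions in Sen against Pro, 0 closed in siFOXF1/2, 9 closed in JUN-family knockdown, 0 opened and 0 closed in sip300/CBP and 0 closed in sip65. The causes were not tested.

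Leaving out a library eases the rules. Opened and closed counts could therefore only stay or rise, and the rule for heights is eased as well. The ranges that follow do not show how far a count could fall. Leaving out each replicate gave, in Sen against Pro, 10 to 14 opened, 0 to 2 closed, 3 to 5 higher and 23 to 25 lower regions. In siFOXF1/2 against Sen the ranges were 4 to 11, 1 to 4, 9 to 14 and 10 to 15. JUN-family knockdown gave 2 to 3, 15 to 21, 3 to 7 and 4 to 7, sip300/CBP gave 6 to 11, 7 to 16, 7 to 14 and 5 to 8, and sip65 gave 0 to 2, 14 to 26, 3 to 6 and 0 to 7. No paired analysis was possible because the results are presence calls and non-overlap counts with no fitted test. Pileups at single-end start regions were as low as 10.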
